A study of Mus musculus with 2 samples.

Results

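Interferon-gamma induced GTPases were followed in regulatory T (Treg) cells, which depend on the transcription factor Foxp3 to keep other immune cells in check. In one group of mice Foxp3 had been intact throughout life, and in the other it had been switched on only after disease had begun. The set held 9 of the 16098 genes in the count table, chosen by name with earlier results of these data known. It comprised the guanylate-binding protein genes Gbp2, Gbp2b, Gbp3, Gbp4 and Gbp7, and the immunity-related GTPase genes Igtp, Irgm1, Irgm2 and Iigp1. All 9 were detected in both libraries. The clearest difference between the whole libraries lay in Gbp2b, which was 3.71-fold higher in rescued than in control cells. Its chromosomal neighbour Gbp2 was lower in the rescued library as a whole. Within 10 clusters of cells with like expression, Gbp2b was higher in rescued cells of 8, whereas Gbp2 was higher in 5 and lower in 5. Beyond counting error, Gbp2b was higher in 7 clusters and lower in 1, and Gbp2 was higher in 2 and lower in 0.

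Interferon-gamma is a cytokine of T and NK cells. It binds a receptor whose ligand-binding chain is Ifngr1, and signalling through the kinases Jak1 and Jak2 leads to transcription from gamma-activated sites (GAS) and to induction of Irf1. Type I interferons act through a different receptor and lead to transcription from the interferon-stimulated response element (ISRE), as in Ifit3, an RNA-binding antiviral gene. Guanylate-binding proteins are large GTPases that coat and break the membranes around intracellular pathogens. Among the immunity-related GTPases, Iigp1 loads onto pathogen vacuoles as an effector, and Igtp, Irgm1 and Irgm2 keep such effectors off the membranes of the cell itself. Both families can respond to either kind of interferon.

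GFP-expressing Treg cells had been sorted from spleen and lymph nodes of male C57BL/6 mice labelled as 7 months of age, and 1 droplet library (10x Chromium 3′ v3) was made for each genotype. The control library pooled 5 Foxp3DTR-GFP/y Cd4creERT2 mice, whose Foxp3 locus also encodes a diphtheria toxin receptor fused to GFP. The rescued library pooled 4 Foxp3LSL/y Cd4creERT2 mice, in which a loxP-flanked stop cassette silences Foxp3 until the tamoxifen-inducible Cre, driven by Cd4, removes it. Mice of both genotypes had been given 4-hydroxytamoxifen on postnatal day 14 and carried a tdTomato allele at Rosa26 that the same Cre switches on. The pooled mice cannot be separated, so no difference here has a replicate check and none was tested.

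The libraries held 3634 control and 3390 rescued cells, with medians of 3739.5 and 3846.5 UMIs (unique molecular identifiers, each marking 1 captured RNA molecule) per cell, and they shared 3 cell barcodes. Foxp3, the targeted gene, was at 80.9 UMIs per 1000000 UMIs (CPM) in control and 468 CPM in rescued cells, with a UMI in 26.3% and 71.7% of cells. Both Foxp3 alleles are engineered, so a 3′ count of Foxp3 does not check the labels. All 7 Treg markers examined were detected in both libraries. The summed markers of other cell types were low, at 38.9 CPM in control and 50.7 CPM in rescued cells for B cells, 2.65 and 3.28 CPM for myeloid cells, and 63.4 and 43.1 CPM for CD8 T or NK cells. Of these markers Ms4a1 was at 0 in control cells and Itgam at 0 in rescued cells. The counts held 5 of 6 B cell, 4 of 7 myeloid and 5 of 6 CD8 T or NK cell markers. Cells with a UMI of any of these or of red blood cell markers made up 24% of control and 26.9% of rescued cells. Such a UMI is not a call of cell type, since Nkg7 was among the leading genes of cluster 8, described below. The medians without these cells are given in the closing section. Of 8 genes of dissociation stress, 4 were higher and 4 lower in rescued cells, with log2 ratios of up to 0.45 and, for the heat shock genes Hspa1a and Hspa1b, of -1.18 and -1.001.

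The promoters of these genes are shown first because they hold the 2 response elements named above. RefSeq promoter windows of build GRCm38.p6 (250 bases before to 50 after the transcription start) were used for 7 of the 9 genes. Windows of Gbp4 and Iigp1 are not reported here. An ISRE was searched as GAAANNGAAA and a GAS as TTCNNNGAA, the first on both strands and the second, which reads alike on both, once. Overlapping matches were counted separately. The ISRE letters stood in a promoter of each of the 7 genes, though not at the second listed start of Gbp3. Of all 32851 promoters searched, 3.44% held them. The GAS letters stood in the promoters of Gbp7, Igtp and Irgm2, against 8.3% of all promoters. Each line gives 30 bases in the direction of transcription, 5′ to 3′, with the matching letters in capitals.
Gbp2 at chr3:142620594-142620623, plus strand: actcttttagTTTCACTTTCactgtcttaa
Gbp2b at chr3:142594700-142594729, plus strand: gtacttctaaTTTCACTTTCttctttatca
Gbp3 at chr3:142559992-142560021, plus strand: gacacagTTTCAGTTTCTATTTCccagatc
Gbp7 (ISRE) at chr3:142530273-142530302, plus strand: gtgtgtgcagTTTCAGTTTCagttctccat
Gbp7 (GAS) at chr3:142530229-142530258, plus strand: tTTCCAGGAAaagcagaagcTTCTCAGAAa
Irgm1 at chr11:48871428-48871457, minus strand: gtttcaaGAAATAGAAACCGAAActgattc
Igtp at chr11:58199507-58199536, plus strand: ccatTTCTAGGAActGAAACTGAAAgctgt
Irgm2 at chr11:58214898-58214927, plus strand: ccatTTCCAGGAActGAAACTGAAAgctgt

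Gbp2 and Gbp2b carried the same 10 ISRE letters, read on the opposite strand, but at different distances from the start. The match of Gbp2 lay 59 to 50 bases before its RefSeq start. That of Gbp2b lay 137 to 128 bases before its own, farther out than the ISRE of any of the other 6 genes. These distances depend on the annotation. The GENCODE gene span of Gbp2 given below begins at 142620602, which puts its match just inside the gene, whereas both annotations give the same start for Gbp2b. Gbp3 and Irgm1 each held 2 overlapping ISRE matches. Igtp and Irgm2 had a GAS directly before their ISRE, and 38.1% of the 20-base words of one promoter recurred in the other. A match of letters is a description of the promoter and does not show that a factor binds there.

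**Figure D1:**
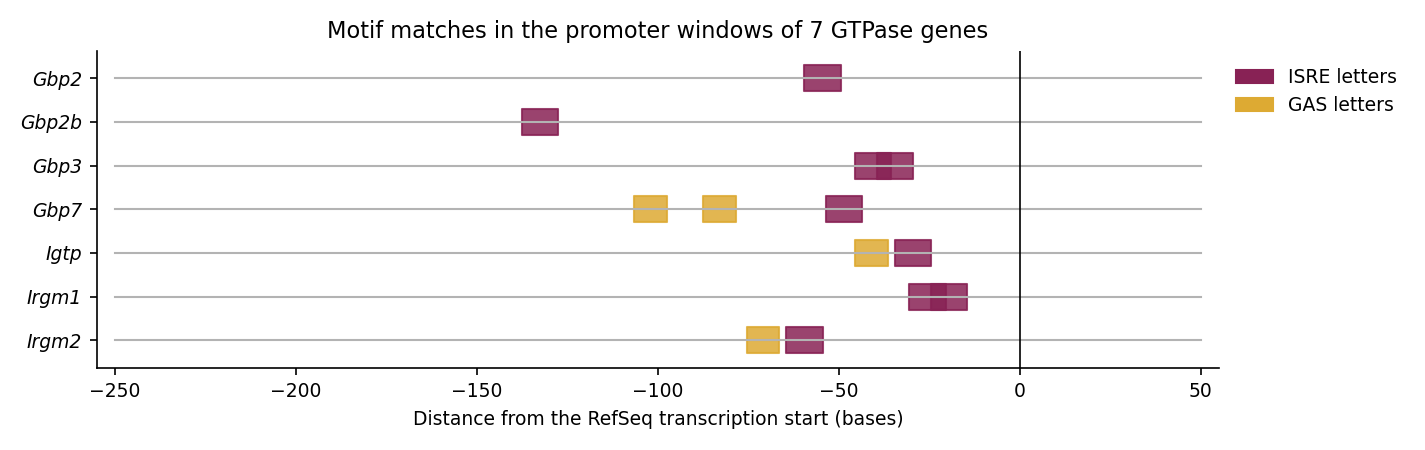
Positions of ISRE letters (purple) and GAS letters (yellow) in the promoter windows of 7 GTPase genes, in bases from the RefSeq transcription start (vertical line). Gbp2b has its ISRE 137 to 128 bases before the start, farther out than the others, and Gbp7, Igtp and Irgm2 also hold GAS letters.

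The genes are grouped on the chromosomes (GRCm38, GENCODE vM21). Gbp7 (ENSMUSG00000040253, 142530342 to 142550149), Gbp3 (ENSMUSG00000028268, 142560026 to 142573209), Gbp2b (ENSMUSG00000040264, 142594847 to 142619179, also called Gbp1) and Gbp2 (ENSMUSG00000028270, 142620602 to 142638008) follow each other on chromosome 3. Gbp4 (ENSMUSG00000079363) lies on chromosome 5 at 105115767 to 105139586. Irgm1 (ENSMUSG00000046879, 48861968 to 48871683), Igtp (ENSMUSG00000078853, 58199556 to 58207591) and Irgm2 (ENSMUSG00000069874, 58199618 to 58222782) lie on chromosome 11. The annotated spans of Igtp and Irgm2 overlap on 1 strand, as do those of Gbp4, Gbp8 and Gbp9 and those of Gbp7 and Gm43802, so that reads in shared exons could not be given to 1 gene. Of the 50-base words in the last 500 bases of the Gbp4 transcripts, 19.4% also occurred in transcripts of other genes, mainly Gbp6 and Gbp9. This is a share of words and not of reads, so Gbp4 counts are less certain by an amount that was not measured. The share was 3.25% for Gbp3, 3.96% for Irgm1 and 0% for the other 6 genes, Gbp2b and Gbp2 among them.

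Levels were taken as summed UMIs over summed totals of the cells. The kit counts the 3′ end of each molecule once, so the counts do not grow with transcript length. Intervals are exact at 95% and cover counting error only. In control cells the order was Igtp at 280.1 CPM (272 to 288), Gbp7 at 241 CPM (234 to 249), Iigp1 at 185 CPM (178 to 192), Gbp2 at 160.0 CPM (154 to 166) and Gbp4 at 154 CPM (148 to 160.0). Irgm1 at 116 CPM (111 to 121), Gbp3 at 105 CPM (99.8 to 110.0), Irgm2 at 35.9 CPM (33.0 to 39.0) and Gbp2b at 25.8 CPM (23.4 to 28.5) followed. Only the intervals of Gbp2 and Gbp4 overlapped among neighbours in that order.

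In rescued cells Gbp7 came first at 319.9 CPM (311 to 329), then Igtp at 296 CPM (288 to 305), Iigp1 at 232 CPM (224 to 239), Gbp4 at 175 CPM (168 to 182) and Gbp3 at 160.1 CPM (154 to 167). Gbp2 at 132 CPM (126 to 138), Irgm1 at 127 CPM (122 to 133), Gbp2b at 95.8 CPM (91.0 to 101) and Irgm2 at 39.97 CPM (36.9 to 43.2) were lower. Here only Gbp2 and Irgm1 had overlapping intervals among neighbours. Gbp2b moved from the last place in control to the eighth in rescued cells.

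**Figure D2:**
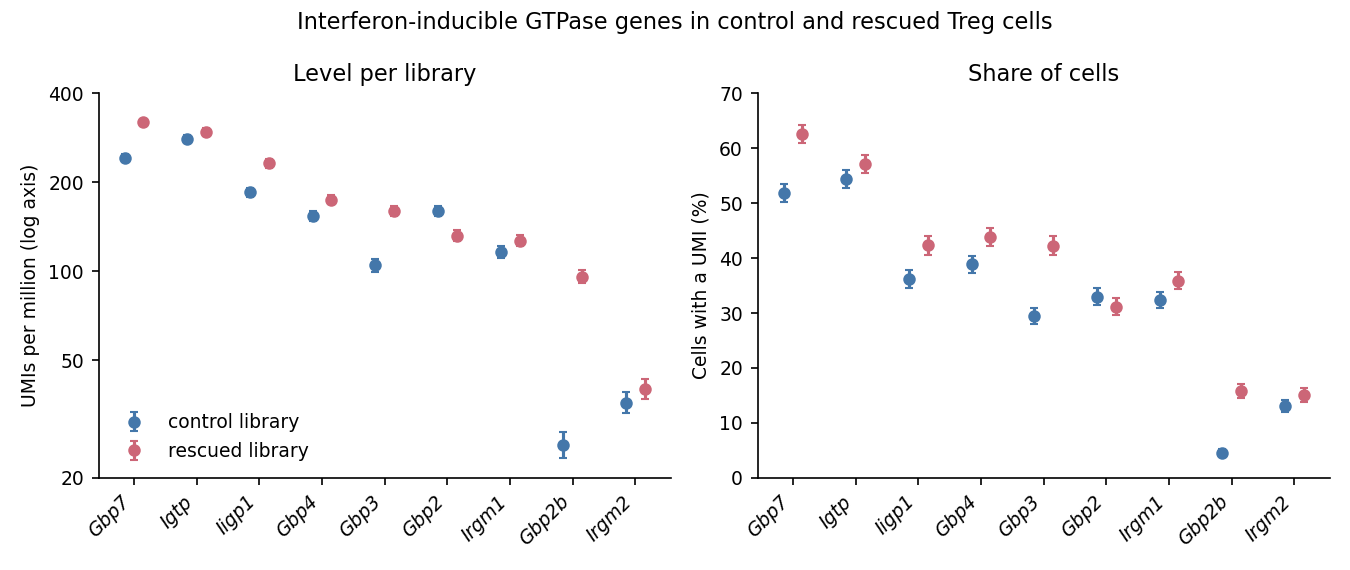
Level of each GTPase gene in CPM (left, log axis) and share of cells with a UMI in percent (right), in the control (blue) and rescued (red) library. Points are single libraries and bars are exact 95% counting intervals. Gbp2b rose from 25.8 to 95.8 CPM and from 4.57% to 15.8% of cells, and Gbp2 was the gene with a lower level in rescued cells.

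The first comparison asked how Treg cells whose Foxp3 was restored in diseased mice differ from Treg cells of healthy controls. The 9 genes summed to 1303 CPM (1285 to 1321) in control and 1578 CPM (1558 to 1598) in rescued cells. Of the 9 genes, 8 were higher and 1 was lower in the rescued library, with a median log2 ratio of 0.19 (that of Gbp4, 0.11 to 0.27), against a median of 0.02 over the 9779 genes with at least 100 UMIs. Gbp2b and Gbp3 were at least 1.5-fold higher and none was 1.5-fold lower, where 5.15% of all genes passed that fold upward and 2.7% downward.

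Gbp2b had 399 UMIs in the control and 1488 UMIs in the rescued library, a log2 ratio of 1.89 (1.73 to 2.05). For Gbp3 the UMIs numbered 1619 and 2488, with a log2 ratio of 0.61 (0.52 to 0.70). Gbp2b and Gbp3 lie in the group on chromosome 3, and Gbp7, of the same group, was higher by a log2 ratio of 0.41 (0.35 to 0.47). The effector Iigp1 followed at 0.33 (0.25 to 0.40). The 3 regulatory genes Irgm2 at 0.15 (-0.01 to 0.32), Irgm1 at 0.13 (0.04 to 0.22) and Igtp at 0.08 (0.02 to 0.14) had smaller ratios. They lay at percentiles 74.2, 71.0 and 62.0 of all genes tested, beside 78.4 for Gbp4. The interval of Irgm2 overlapped that of Iigp1.

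Gbp2 was the exception, with 2472 UMIs in control and 2049 UMIs in rescued cells, a log2 ratio of -0.28 (-0.36 to -0.19). The direction was not the same in all cells. When cells were compared within clusters of like expression, made without interferon-related genes, the Gbp2 ratio turned to 0.21, and that of Gbp2b fell to 1.26. The other 7 genes kept their direction.

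Gbp2b UMIs were concentrated in few cells. A Gbp2b UMI was found in 166 control cells (4.57%, 3.91 to 5.3) and in 536 rescued cells (15.8%, 14.6 to 17.1), or in 2.06% and 7.11% after every cell had been thinned to 1000 UMIs. A cell with any Gbp2b UMI held on average 2.4 of them in control and 2.78 in rescued cells, and the most in a single cell were 16 and 22. Irgm2, whose control level was close to that of Gbp2b, was spread more evenly, over 472 control cells (13%) with 1.18 UMIs each. In thinned cells the variance over the mean was 1.63 and 1.80 for Gbp2b, 1.63 and 1.66 for Gbp2, and 0.992 and 1.06 for Irgm2, where random counting alone gives about 1. Between the libraries the UMIs per positive cell thus differed less than the share of positive cells. Counting intervals are too narrow for a transcript clustered in this way. No cell type that should lack these genes was present, so the share of cells that free RNA would give could not be measured.

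Most cells held several of the 9 genes. At least 1 of them was found in all but 321 control cells (8.83%) and 194 rescued cells (5.72%), and 3 or more in 53.3% and 64.3% of cells. After thinning, 3 or more were found in 11.9% and 15.3% of cells. The tenth of the cells with the most UMIs of these genes held 35.1% of the UMIs in control and 34% in rescued cells.

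**Figure D3:**
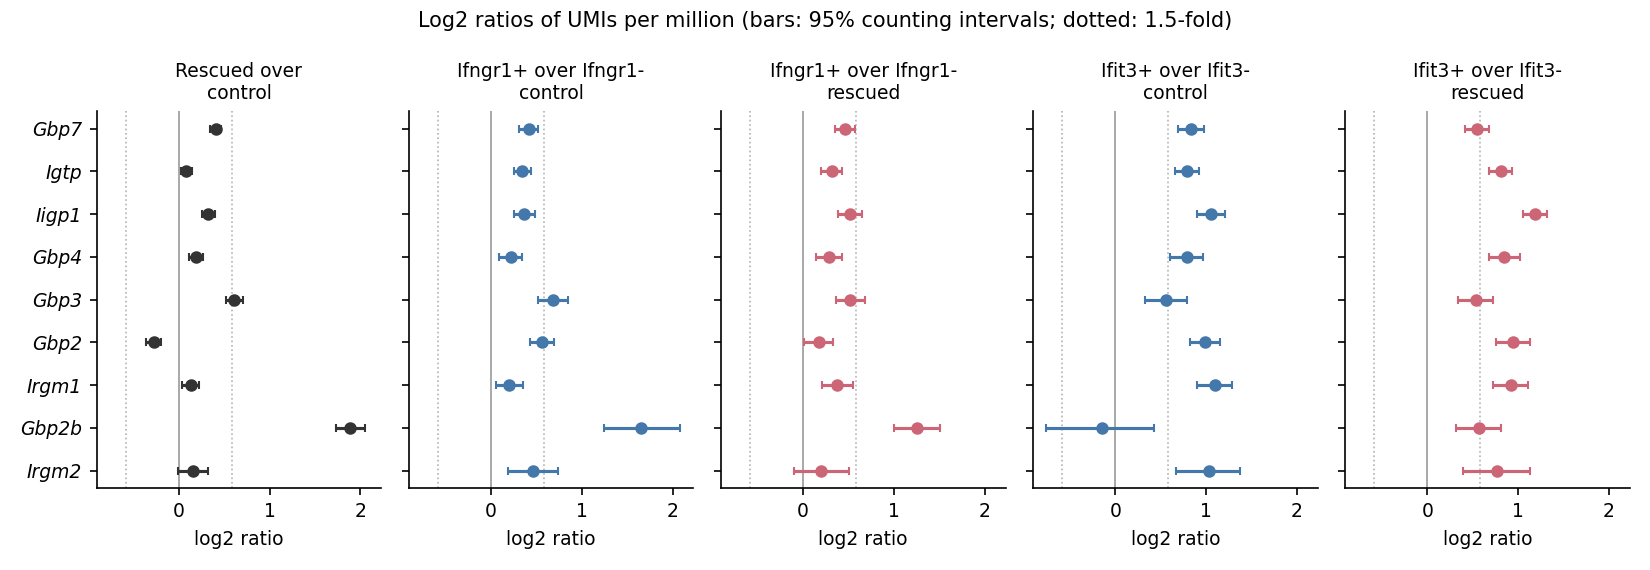
Log2 ratios of CPM for each GTPase gene in 5 comparisons, as named above each panel: rescued over control cells, then cells with over cells without an Ifngr1 UMI and an Ifit3 UMI, in control (blue) and rescued (red) cells. Bars are 95% counting intervals and dotted lines mark 1.5-fold. Gbp2b has the highest ratio in the first 3 panels, at 1.89, 1.65 and 1.25, and the lowest among control cells with Ifit3, at -0.14.

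The second comparison asked whether the GTPase genes were higher in cells in which the receptor chain Ifngr1 was detected. An Ifngr1 UMI was found in 2287 control cells (62.9%) and 2602 rescued cells (76.8%). Cells without one can still express the receptor, and cells with one were somewhat deeper, with medians of 3874 against 3551 UMIs in control and 3909.5 against 3641.5 UMIs in rescued cells. All 9 genes were higher in Ifngr1+ cells of both libraries. The median log2 ratio was 0.42 in control cells (that of Gbp7, 0.31 to 0.52) and 0.38 in rescued cells (that of Irgm1, 0.21 to 0.56), against -0.01 and 0.00 over all genes tested. At least 1.5-fold differences were seen for 2 of 9 genes in control cells, where 1.2% of all genes were that much higher, and for 1 of 9 in rescued cells, against 2.04%. The clusters described below bear on the size: within them the median in rescued cells was 0.23.

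Gbp2b again led. In control cells it was at 10.7 CPM without and 33.6 CPM with Ifngr1, a log2 ratio of 1.65 (1.24 to 2.09), and in rescued cells at 45.6 and 109 CPM, a ratio of 1.25 (1.00 to 1.51). The other gene past 1.5-fold was Gbp3 in control cells, with a ratio of 0.68 (0.52 to 0.85), and its ratio in rescued cells was 0.52 (0.36 to 0.68). Gbp2 had a ratio of 0.56 (0.43 to 0.70) in control and 0.17 (0.01 to 0.33) in rescued cells, the lowest of the 9 there. The regulatory gene Irgm1 had the lowest ratio in control cells, 0.20 (0.06 to 0.35). Ifit3 itself had a ratio of -0.37 (-0.62 to -0.12) in control and 0.12 (-0.21 to 0.46) in rescued cells of the same split, while the share of cells with an Ifit3 UMI was 7.08% with and 5.57% without an Ifngr1 UMI in control, and 6.96% and 4.31% in rescued cells. Of type I interferon targets, 16 of 29 were higher in Ifngr1+ control cells (median 0.03) and 27 of 28 in Ifngr1+ rescued cells (median 0.18).

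With more Ifngr1 UMIs per cell the summed level and that of Gbp2b rose, though not every step was beyond counting error. Median depth rose as well, from 3551 to 3997 UMIs in control and from 3641.5 to 4083 UMIs in rescued cells. The 8 genes other than Gbp2b summed to 1060.4 CPM in control cells with 0 Ifngr1 UMIs, 1264 CPM with 1, 1431 CPM with 2 and 1486 CPM with 3 or more. In rescued cells the sums were 1194, 1347, 1595 and 1639 CPM. Gbp2b went through 10.7, 26.5, 29.1 and 43.4 CPM in control cells and 45.6, 88.4, 92.4 and 123 CPM in rescued cells. In both libraries the counting intervals of the sum overlapped between 2 and 3 or more Ifngr1 UMIs. Those of Gbp2b overlapped between 1 and 2. Not every gene rose at each step: from 2 to 3 or more Ifngr1 UMIs, Irgm1 went from 135 to 115 CPM in control and from 150 to 137 CPM in rescued cells, and in rescued cells Gbp2 went from 142 to 132 CPM, Igtp from 334 to 323 CPM and Irgm2 from 46.7 to 42.5 CPM. The Gbp2b level in rescued cells with 0 Ifngr1 UMIs was about that of control cells with 3 or more. Within the Ifngr1- cells of both libraries the rescued over control ratio of Gbp2b was 2.09 (1.64 to 2.56), and within the Ifngr1+ cells it was 1.69 (1.52 to 1.87). The Gbp2 ratio was -0.02 (-0.21 to 0.17) in Ifngr1- cells and -0.41 (-0.51 to -0.32) in Ifngr1+ cells.

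**Figure D4:**
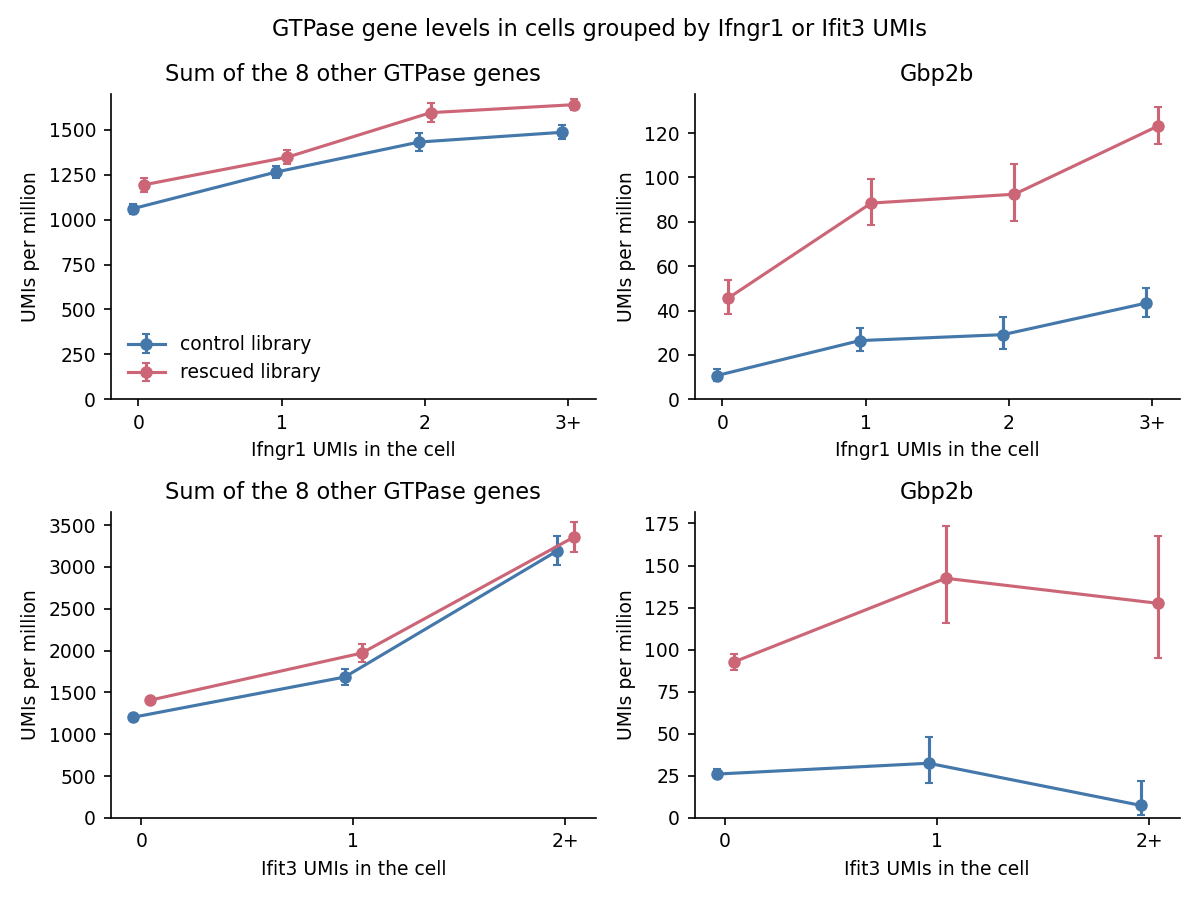
Levels in CPM of the 8 GTPase genes other than Gbp2b (left) and of Gbp2b (right) in cells grouped by their number of Ifngr1 UMIs (top) or Ifit3 UMIs (bottom), for the control (blue) and rescued (red) library, with 95% counting intervals. The sum of the 8 genes rose to 3189 and 3356 CPM with 2 or more Ifit3 UMIs in both libraries, while Gbp2b in control cells was at 7.4 CPM there.

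The third comparison split the cells by Ifit3, a gene of the type I interferon response. An Ifit3 UMI was found in 237 control cells (6.52%) and 215 rescued cells (6.34%), and its level was 36.2 CPM (33.3 to 39.3) in control and 31.5 CPM (28.7 to 34.4) in rescued cells, a log2 ratio of -0.20 (-0.38 to -0.02). Both splits were made on the same cells. The median log2 ratio was 0.84 in control cells (that of Gbp7, 0.70 to 0.98) and 0.81 in rescued cells (that of Igtp, 0.67 to 0.94), against -0.03 and -0.05 over all genes tested. At least 1.5-fold higher were 7 of 9 genes in control cells, against 3.69% of all genes, and 6 of 9 in rescued cells, against 3.02%.

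The regulator Irgm1 had the highest ratio in control cells and the effector Iigp1 in rescued cells. Iigp1 went from 171 to 355 CPM in control cells, a ratio of 1.05 (0.90 to 1.20), and from 212 to 483 CPM in rescued cells, a ratio of 1.19 (1.05 to 1.32). Irgm1 had ratios of 1.10 (0.90 to 1.29) and 0.92 (0.72 to 1.11). Gbp2, which was lower in the rescued library, followed Ifit3 closely in both, with ratios of 0.99 (0.82 to 1.16) and 0.94 (0.75 to 1.13). The other genes past 1.5-fold in both libraries were Irgm2, Gbp4 and Igtp.

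Gbp2b and Gbp3, the genes with the highest rescued over control ratios, had the lowest Ifit3 ratios in control cells. In rescued cells Gbp3 was lowest, followed by Gbp7 at 0.55 and Gbp2b. Gbp3 was at 0.56 (0.32 to 0.79) in control and 0.53 (0.34 to 0.72) in rescued cells. Gbp2b was at -0.14 (-0.76 to 0.42) in control cells, with 27 UMIs in the 237 Ifit3+ cells, and at 0.56 (0.31 to 0.81) in rescued cells, with 152 UMIs in the 215 Ifit3+ cells. The difference between these 2 values was not tested. In control cells the level was 26 CPM with 0 Ifit3 UMIs, 32.5 CPM (20.8 to 48.3) with 1 and 7.4 CPM (1.53 to 21.6) with 2 or more, the last from 3 UMIs in 88 cells, for a ratio of -1.81 between the last and the first. The same 88 cells had 446 CPM of Gbp2, against 149 CPM in control cells with 0 Ifit3 UMIs, and 560 CPM of Iigp1, against 171 CPM.

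When both genes were used, Ifit3 went with a higher sum of the 9 genes in cells with and without Ifngr1. In control cells the sums were 989 CPM (962 to 1018) with neither UMI, 1354 CPM (1330 to 1377) with Ifngr1 alone, 2473 CPM (2294 to 2661) with Ifit3 alone and 2162 CPM (2065 to 2263) with both. The rescued cells had 1181, 1582, 2557 and 2624 CPM in the same order. Cells with Ifit3 alone numbered 75 and 34. In these 75 control cells Gbp2b was at 0 UMIs (interval to 12.8 CPM), whereas Gbp2 was at 312 CPM (251 to 384). In the 34 rescued cells Gbp2b had 41 UMIs, 305 CPM (219 to 414), from 10 cells with up to 11 UMIs each, so that few cells set this value.

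The cells fell into 10 clusters, numbered 0 to 9, each with at least 50 cells of either library. The 9 genes had no part in the clustering. Among control cells the sum of the 9 genes ran from 769 CPM in cluster 3 (led by Il1r2 and Penk) to 1739 CPM in cluster 1 (led by Ccr9), and among rescued cells from 1040.0 CPM in cluster 0 (led by Lag3 and Pdcd1) to 2371 CPM in cluster 6 (led by Igfbp4 and Bcl2). The 8 genes other than Gbp2b varied 1.88- to 7.26-fold between the lowest and the highest cluster of a library, and Gbp2b varied 20.8-fold in control and 19.4-fold in rescued cells.

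Gbp2b was highest in cluster 1 of the control library, at 141 CPM (112 to 176), and in cluster 9 of the rescued library, at 225 CPM (200.3 to 251). Gbp2b, though not used for the clustering, was also among the 10 leading genes of both clusters, beside the gut-homing receptor Ccr9. Clusters 1 and 9 made up 7.13% of control and 36.2% of rescued cells, and they held 28.6% of the control and 61.9% of the rescued Gbp2b UMIs. Within cluster 1 the libraries were close, with a rescued over control ratio of 0.16 (-0.18 to 0.52). The Gbp2b ratio was 1.66 (1.16 to 2.20) in cluster 9, 3.22 (2.33 to 4.26) in cluster 3 and 3.25 (2.60 to 3.88) in cluster 7, which was led by Ly6c1 and Igfbp4. In cluster 0 it was -1.22 (-2.02 to -0.43), from 29 UMIs in either library. The control UMIs came from 8 cells with up to 11 UMIs each, so that few cells set this value. The rescued UMIs came from 22 cells with up to 4 each. The share of cluster 0 cells with a Gbp2b UMI was 2.94% in control and 3.66% in rescued cells. Gbp2b was higher in rescued cells of 8 of the 10 clusters, with an interval above 0 in 7 of them.

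Gbp3 was higher in rescued cells in all 10 clusters, with ratios of 0.25 to 1.12, and the sum of the 9 genes in 9 of 10. The interval lay above 0 in 7 clusters for Gbp3 and in 9 for the sum. Gbp2 was split, with 5 clusters on either side. Clusters 6 and 7 both had Igfbp4 among their leading genes, and they held 615 and 1148 control cells but 183 and 77 rescued cells. There Gbp2 was at 262 and 195 CPM in control and at 383 and 424 CPM in rescued cells, with ratios of 0.55 (0.35 to 0.74) and 1.12 (0.84 to 1.39). In the remaining 8 clusters the Gbp2 ratios were -0.21 to 0.40, each with an interval that included 0. Of these, cluster 9 had the highest Gbp2 level in control cells, 196 CPM, against 173 CPM in rescued cells.

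**Figure D5:**
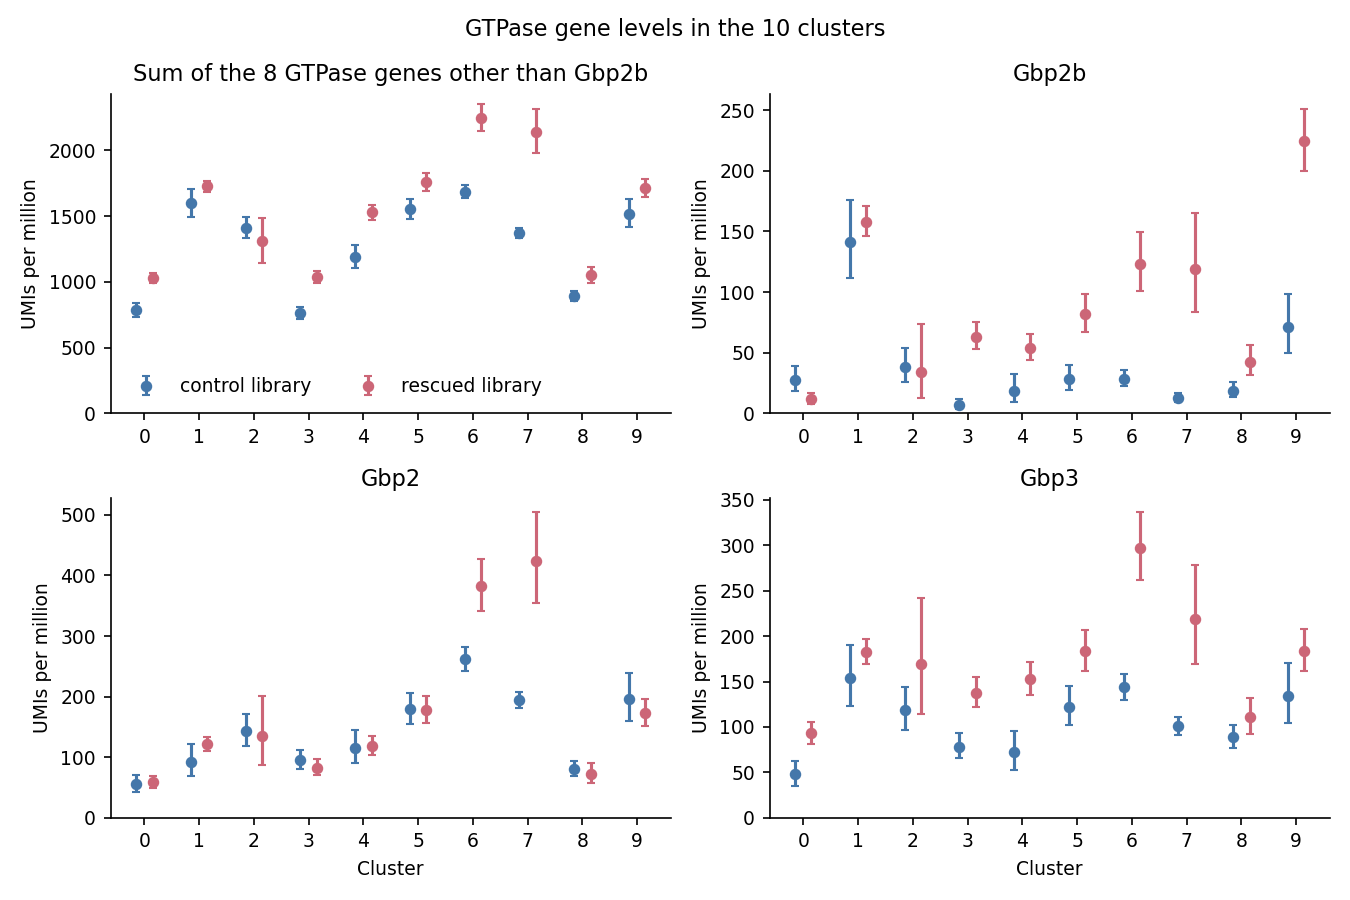
Levels in CPM of the 8 GTPase genes other than Gbp2b, of Gbp2b, of Gbp2 and of Gbp3 in the 10 clusters, for the control (blue) and rescued (red) library, with 95% counting intervals. Gbp2b is at 141 and 158 CPM in cluster 1, where the libraries are close, and Gbp2 is highest in clusters 6 and 7 of the rescued library.

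The pathway around these genes was described by lists of genes. Among other interferon-inducible GTPases, 15 of 18 had at least 100 UMIs in the libraries together, 9 of them higher and 6 lower in rescued cells, with a median log2 ratio of 0.06. Past 1.5-fold were F830016B08Rik at 0.95 (0.77 to 1.13) and Gm4951 at 0.63 (0.48 to 0.78), both relatives of Iigp1. In the other direction Gbp10 passed it at -0.73 (-1.28 to -0.19). Of all genes tested, 5.15% passed that fold upward and 2.7% downward. In the Ifit3 split 10 of 14 of these GTPases were at least 1.5-fold higher in control and 11 of 14 in rescued cells. The shares over all genes tested were 3.69% and 3.02%. Gm4951 was at 1.70 and 1.63, Gbp6 at 1.61 and 1.47 and Gbp9 at 1.27 and 1.09.

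Of the genes for the receptor and its kinases, Ifngr1 was higher in rescued cells by a log2 ratio of 0.74 (0.69 to 0.79), from 366 to 610.4 CPM, while Ifngr2, the signalling chain, was lower by -0.50 (-0.68 to -0.32). Jak1 was at -0.19 (-0.24 to -0.14) and Jak2 at 0.05 (-0.10 to 0.19). Among signalling genes the higher ones included Irf8 at 0.55 (0.38 to 0.71), the class I transactivator Nlrc5 at 0.27, Irf1 at 0.10, and the feedback inhibitors Socs1 at 0.29 and Socs3 at 0.59 (0.51 to 0.66), the last past 1.5-fold. The inhibitors Ptpn2 at -0.04 and Pias1 at -0.13 were on the other side.

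All 16 of the interferon-gamma targets with at least 100 UMIs that are not GTPases were higher in rescued cells, with a median of 0.22 that lies near the median of the 9 GTPase genes. The chemokine Cxcl10 at 1.41 (1.24 to 1.59), the protease inhibitor Serpina3g at 1.36 (1.29 to 1.44) and the MHC class II invariant chain Cd74 at 1.17 (1.11 to 1.25) passed 1.5-fold, and the proteasome genes Psmb10 at 0.07 and Psme1 at 0.11 were lowest. Over all genes tested the median was 0.02, and 5.15% were at least 1.5-fold higher. The 16 targets went both ways in the Ifngr1 split. In Ifngr1+ control cells 11 were higher and 5 lower, with ratios of -1.42 to 0.32 (median 0.05). In Ifngr1+ rescued cells 9 were higher and 7 lower, with ratios of -1.38 to 0.24 (median 0.08). In the Ifit3 split 15 of 16 were higher in either library, with medians of 0.23 and 0.28. Among type I interferon targets 13 of 30 were higher and 17 lower, with a median of -0.03, from Oasl1 at -1.92 and Ifi44 at -1.53 to Isg20 at 0.51 and Eif2ak2 at 0.63. Of the receptor and signalling genes of type I interferon, Irf7 at -0.49 and Stat2 at -0.16 were lowest and Tyk2 at 0.27 and Ifnar2 at 0.04 highest. Transcripts of the ligand gene Ifng were rare, with 64 UMIs in control and 99 UMIs in rescued cells, and Cxcr3, a marker of Th1-like Treg cells, was higher at 1.35 (1.25 to 1.44).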

How the data were processed

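Reads had been aligned by the authors with Cell Ranger 3.0 to mm10 (GRCm38) with the tdTomato allele added, and the deposited counts are whole UMIs per cell and gene without normalization. The methods remove cells over 5% mitochondrial transcripts or under 1000 molecules, and the median mitochondrial share in the deposited counts was 9.43% of control and 9.06% of rescued cell totals. The table holds 0 ribosomal protein genes, so the totals, and with them this share and every CPM, lack their UMIs, and the share cannot be set against that filter. Seurat 3.1.5 is also named in the submitters' processing notes. The deposited log-normalised table was not used. Other columns of per-sample values numbered 0. Cells were assigned to libraries by name prefix. All cells were used (depth 1415 to 46139 UMIs, 15446201 control and 15537656 rescued UMIs).

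Counts were summed, scaled to 1000000 UMIs (CPM) and compared as log2 ratios with Python 3.11.15, numpy 2.4.6, scipy 1.17.1 and scanpy 1.11.5. CPM carry exact Poisson intervals, shares Clopper-Pearson intervals and ratios conditional exact intervals, all at 95%. A gene was called past 1.5-fold, among genes with at least 100 UMIs over the cells compared. The script was tested on simulated data. Clusters came from the Leiden method (2000 variable genes, 40 components, 15 neighbours, resolution 1), with the GTPase, interferon, MHC, immunoglobulin, T cell receptor and mitochondrial genes and TdTomato left out. Doublets were kept. Scrublet called too few cells to work, so the highest scores (ties included, 208 control and 138 rescued cells) were left out as an alternative. Mitochondrial UMIs stayed in the totals.

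Members and gene lists were chosen with earlier results of these data known. Named genes were all 9 members, Ifngr1 and Ifit3, the 2 highest and 2 lowest of each list by rescued over control ratio, the genes of the receptor, signalling and other GTPase lists, and the 5 genes closest to the members over the cluster by library populations. Cd74, Hspa1a and Hspa1b were named after their values were seen. Some genes of the lists and clusters are not reported here.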

Additional observations from a re-analysis of the deposited data

How the results depend on the processing

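No paired analysis was possible because 1 library was made for each genotype, and no library could be left out. Of 40 alternative values of the 5 medians, 34 stayed within the counting interval, 6 moved outside it and 0 changed sign. With cells of 2 or more UMIs set against cells with 0, the median of the Ifngr1 split in control cells was 0.52, that of the Ifit3 split in control cells 1.42 and that of the Ifit3 split in rescued cells 1.20. Without cells with a marker UMI of another cell type the Ifit3 medians were 1.02 in control and 0.95 in rescued cells, and within clusters the median in rescued cells was 0.67. The cause of these shifts was not tested, but each kept its direction. Without those cells the rescued over control median was 0.17 and the Ifngr1 medians 0.36 in both libraries. Over all alternatives the rescued over control median lay between 0.16 and 0.26. Of 315 values for single genes 48 moved and 1 reversed, Gbp2 in rescued over control cells, which was 0.21 within clusters. The share of all genes past 1.5-fold in either direction depended on the minimum count: between rescued and control cells it was 7.85% at 100, 13.3% at 20 and 4.59% at 500 UMIs. In the same order the Ifngr1 split gave 2.29%, 7.36% and 0.805% in control and 3.9%, 9.75% and 1.38% in rescued cells, and the Ifit3 split 8.66%, 17.2% and 2.62% in control and 10.1%, 18.2% and 3.26% in rescued cells. Alternatives other than these were each cell weighted the same, thinning to 1000 UMIs, the highest Scrublet scores left out, 10 classes of cell total matched for depth, the median of all genes subtracted, and mitochondrial UMIs left out of the total. Depth limits what can be said of Gbp2b in Ifit3+ control cells, where it had 27 UMIs, and of the 34 rescued cells with Ifit3 alone.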

Other observations

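The GTPase genes were found together in the same cells. When cells were split by a UMI of 1 of the 9 genes, the other 8 were higher in cells with it in all 72 ordered pairs of either library, with log2 ratios of 0.06 to 1.63 (median 0.73) in control and 0.03 to 1.69 (median 0.63) in rescued cells. These splits were not computed for genes outside the set, so whether such ratios are particular to the 9 genes was not tested. The closest pair was Gbp2b and Gbp3. In cells with Gbp3, Gbp2b was higher by 1.63 (1.34 to 1.93) in control and 1.69 (1.52 to 1.87) in rescued cells. The loosest were Gbp2b by Gbp2 in control cells, at 0.06 (-0.24 to 0.36), and Irgm2 by Gbp2b in rescued cells, at 0.03 (-0.28 to 0.32).

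Over the 20 populations of cluster by library, the level of each gene followed the sum of the other 8 with Pearson r of 0.71 for Gbp2b and 0.73 for Gbp2 to 0.91 for Igtp and Irgm1. Of 6948 genes outside the set, those closest to the sum of the 9 were Socs3 (r = 0.91, Spearman rho = 0.91), Ifit1bl1 (0.90, 0.87), Gm4951 (0.90, 0.92), Pde2a (0.89, 0.88) and Pgs1 (0.88, 0.87). Socs3 encodes a feedback inhibitor of cytokine signalling. The populations share 2 libraries, so these values are descriptions.

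A split by the tdTomato reporter was looked at after other values had been seen. Control cells had a TdTomato UMI in 62.9% of cases and rescued cells in 55.9%. By flow cytometry the paper reports the opposite order, with the reporter in a small share of control and a large share of rescued Treg cells. A UMI, or none, is therefore not a call of cells in which the reporter had been switched on. In control cells with a TdTomato UMI, Gbp2b was at 31.2 CPM, against 14.6 CPM in cells without, a log2 ratio of 1.09 (0.72 to 1.48), while the other 8 genes had ratios of -0.20 to 0.07. In rescued cells the Gbp2b ratio was -0.13 (-0.28 to 0.02), with the other 8 between -0.31 and -0.05.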
